A study of Mus musculus with 3 samples.

Results

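Exon-centred homocysteinylation peaks are those peaks of the H3K79Hcy and KHcy ChIP-seq lists whose centre fell in an exon of a protein-coding gene (mm9, GENCODE M1), after leaving out peaks that contained a gene start or were centred within 2000 bp upstream of one. By this rule 586 of 14687 peaks were exon-centred, 247 of 7387 in the H3K79Hcy list (3.34%, 95% Wilson interval 2.96 to 3.78%) and 339 of 7300 in the KHcy list (4.64%, 4.18 to 5.15%). The study enriched chromatin of NE4C cells, an established mouse neural stem cell line, with antibodies to H3 homocysteinylated at lysine 79 (H3K79Hcy), to homocysteinylated lysine in general (KHcy, labelled Hcy) and to H3K4me3, the mark of active gene starts, as a positive control. Of the 19339 H3K4me3 peaks, 1105 contained the start of a protein-coding gene and 11021 were intergenic. Their median fold was 2.59 at gene starts and 2.59 over all peaks. Overlap with this list is therefore not read here as a sign of an active gene start. All 3 libraries came from cells grown in Eagle MEM on poly-L-lysine, no treatment with homocysteine thiolactone (HTL) is named in the labels, and the genotype is that of the line. Each antibody had 1 library, so no value has a replicate check, no p-value is given, and all intervals cover counting error only. The H3K79Hcy antibody also weakly recognises the unmodified peptide per the methods, and peaks with each antibody are places of antibody enrichment in 1 cell line, with no input control in the lists.

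Homocysteine thiolactone is a reactive cyclic form of homocysteine that attaches to the amino group of lysine side chains. Lysine 79 lies on the exposed face of the nucleosome core, where its methylation by Dot1l is known from the bodies of transcribed genes. Exons are the parts of a gene kept in its RNA. The last exon usually holds the end of the coding sequence and the 3' untranslated region (UTR), and is much longer than the internal exons, so that it offers more bases in which a peak can be centred.

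The stretches below come from exon-centred peaks described further on. They show exons under peaks of high fold in mostly single-copy sequence (Emp2, Fasl and Bptf). A short exon inside a longer peak near the median fold (Trim33) and repeated sequence are also shown. The first 6 are the starts of coding exons inside peaks, read 5' to 3' on the strand of the gene in mm9, with intron bases in lower case and exon bases in capitals. The last 3 are the bases around the centres of peaks in coding exons of repeated sequence, with coding bases in capitals.
Emp2 exon 3, chr16:10288239-10288268, minus strand: ccattcccttcacagGCCTGGTGGGTAGGC
Emp2 exon 4, chr16:10285680-10285709, minus strand: atcttctgcccacagGTTATTCTGTGATGC
Emp2 exon 5, chr16:10284694-10284723, minus strand: ctttgttcctgacagGTCTGTGTGTCATGA
Fasl exon 4, chr1:163712087-163712116, minus strand: tctggtctattacagGGAACCCCCACTCAA
Trim33 exon 19, chr3:103157475-103157504, plus strand: tggtatcctttttagATGATGAAAGTTGTT
Bptf exon 24, chr11:106914605-106914634, minus strand: tgttctgttctcaagGTGGTGATGAAGCAT
Gm10801, chr2:98503986-98504015, plus strand: CATGATTTTCAGTTTTCTTGACATATTCCA
Gm17535, chr9:3035086-3035115, plus strand: ATTTTCAGTTTTCTTGCCATATTCCATGTC
Dux, chr10:57687486-57687515, minus strand: GGCATGCCTCAAAGAGGTCCATCAGAGGCT
Each of the 6 exon starts occurred 1 time in the genome on both strands together. The Gm17535 stretch occurred 67 times and the Dux stretch 2 times. The Gm10801 stretch occurred 1 time but shared a run of 16 bases with that of Gm17535. Both resemble the major satellite repeat of mouse centromeres.

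The exon-centred peaks as a whole were no stronger than the other peaks of their lists. Fold over background, obtained by dividing the reads in a peak by those that the library background gives over an equal length, had a median of 2.67 for the 247 H3K79Hcy peaks against 2.70 for all peaks of that list, and of 2.24 against 2.25 for the KHcy peaks. The background was 1.59 reads per 200 bp window in the H3K79Hcy library and 1.49 in the KHcy library. The median exon-centred peak held 24 reads over 1200 bp in the H3K79Hcy list and 33 reads over 2000 bp in the KHcy list. A stricter limit on the score of the peak caller kept 79 H3K79Hcy exon-centred peaks (32.0%, against 31% of all peaks of the list) and 153 KHcy peaks (45.1%, against 41.0%). Their GC content had a median of 43.1% in both lists, against 41.1% and 41.6% in intron-centred peaks, and their observed over expected CpG ratio had medians of 0.211 and 0.225, against 0.164 and 0.173 in intron-centred peaks.

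A small set of exon-centred peaks stood far above this level. A fold of 5 or more was reached by 9 H3K79Hcy peaks (3.64%, 1.93 to 6.78%, against 2.73% of all peaks of the list) and by 11 KHcy peaks (3.24%, 1.82 to 5.72%, against 1.78%). These 20 peaks differed by sequence. In 13 of them over 10% of the 31-base words had a further copy elsewhere in the genome (called multi-copy here). All 13 overlapped an H3K4me3 peak. They lay in Gm10801, Gm17535, Gm17019, Speer4e, Dux, Slc30a4, Lars2 and Phf5a. The other 7 were of at most 10% multi-copy words, lay in Emp2 and Fasl, and overlapped no H3K4me3 peak. Of the 13, 12 overlapped an exon-centred peak of the other homocysteinylation list, as did 6 of the 7, so most places count in both lists. H3K4me3 peaks overlapped 15.4% of all H3K79Hcy and 16.5% of all KHcy peaks. The share over all multi-copy peaks, or all peaks of 5-fold or more, was not worked out. The 13 of 13 is therefore not read as particular to exon-centred peaks. The part that multi-copy sequence plays in the fold of the 13 peaks was not tested.

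**Figure D1:**
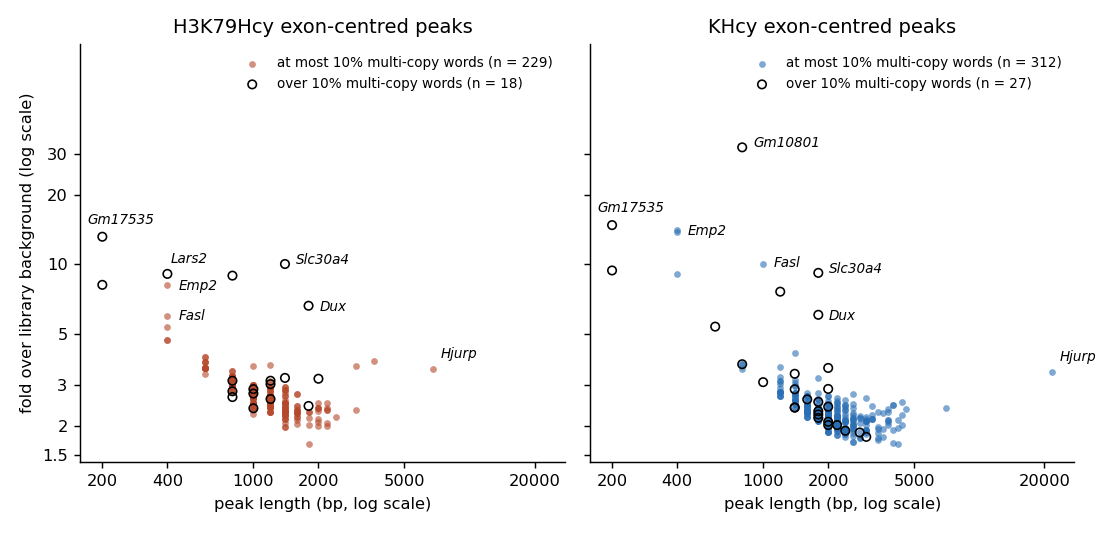
Fold over library background (y axis, log scale) against peak length in bp (x axis, log scale) for the 247 H3K79Hcy and 339 KHcy exon-centred peaks, 1 point for each peak, with open circles for peaks of over 10% multi-copy words. Most peaks form a band near 2- to 3-fold in which short peaks have the higher fold, and the 20 peaks of 5-fold or more are either open circles or lie in Emp2 and Fasl.

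Emp2 encodes epithelial membrane protein 2, a small membrane protein, and lies on the minus strand of chromosome 16 (10281842 to 10314061) with 5 exons in its longest coding transcript. It held 5 exon-centred peaks, the most of any gene. Every peak in the gene was 400 bp long and centred in coding sequence. On exon 3 (106 bp) the KHcy list had a peak of 27 reads (9.09-fold) and the H3K79Hcy list had none. On exon 4 (147 bp) the KHcy peak held 41 reads (13.8-fold) and the H3K79Hcy peak 17 reads (5.34-fold) over the same bases. On exon 5 they held 42 reads (14.1-fold) and 26 reads (8.16-fold), again over the same bases. Exon 5 is 2867 bp long, of which 188 bp are coding, and both peaks sat on the coding end rather than on the long 3' UTR. None of the lists had a peak on exon 1, which is not coding, on exon 2, which has 78 coding bases, or wholly within an intron, although introns 3 and 4 measured 2453 and 839 bp. No H3K4me3 peak overlapped the gene, and multi-copy words made up at most 8.11% of any of these peaks. On the whole of chromosome 16 the lists had 25 H3K79Hcy and 18 KHcy peaks.

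Fasl, which encodes the Fas ligand, a death-inducing member of the tumour necrosis factor family, showed a like layout. The gene lies on the minus strand of chromosome 1 and has 4 exons. The KHcy list had 75 reads (10.1-fold) from 163711601 to 163712600, over exon 4, which carries 395 coding bases, and the H3K79Hcy list had 19 reads (5.97-fold) over the first 400 bp of the same stretch. A further KHcy peak of 54 reads (6.06-fold) covered exon 1 with its 342 coding bases, and it is not counted among the exon-centred peaks because it contains the gene start. Exons 2 and 3, of 46 and 57 bp, had no peak in any list. A further H3K79Hcy peak lay just past the end of the gene, and there was no H3K4me3 peak. In both genes the peaks covered the larger coding stretches of an exon chain, and the KHcy reads exceeded the H3K79Hcy reads on each exon with both.

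**Figure D2:**
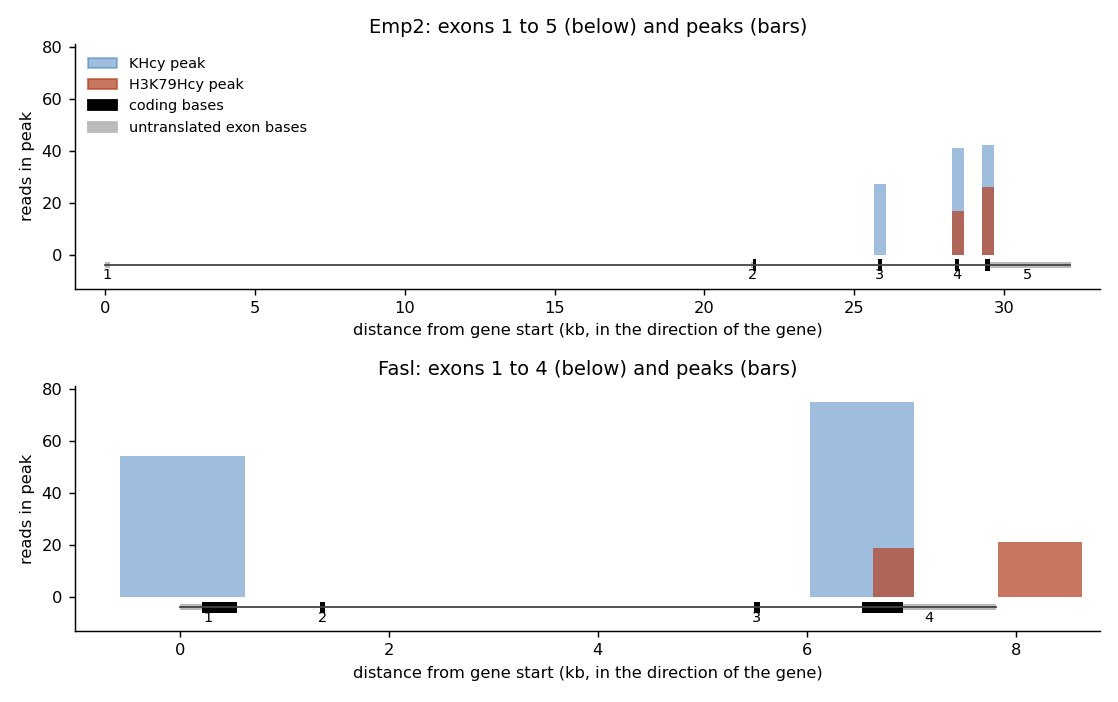
Reads in each peak (y axis, bars drawn over the length of the peak) against distance from the gene start in kb (x axis) for Emp2 and Fasl, with exons below (coding bases black, untranslated bases grey). The Emp2 bars stand on exons 3, 4 and 5 with 27, 41 and 42 KHcy reads, and the Fasl bars of 54 and 75 KHcy reads stand on exons 1 and 4.

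Among peaks of at most 10% multi-copy words, the next highest folds came close behind in the H3K79Hcy list and were further off in the KHcy list. In the H3K79Hcy list a 400 bp peak of 15 reads (4.71-fold) was centred in the 83 bp exon 24 of Bptf, the largest subunit of the NURF chromatin remodeller, and a peak of the same length, reads and fold in 9130221H12Rik. Both peaks were short and held fewer reads than the median exon-centred H3K79Hcy peak (24 reads over 1200 bp). The exon-centred H3K79Hcy peak of lowest fold in Emp2 and Fasl had 17 reads (5.34-fold), also fewer than that median. In the KHcy list the next was Fzr1, an activator of the anaphase-promoting complex (43 reads, 4.13-fold), against 9.09-fold for the weakest exon-centred KHcy peak of Emp2 and Fasl. Among multi-copy peaks, Gm10801 had the highest fold of all (191 KHcy reads, 32.1-fold, with 49.0% multi-copy words). Gm17535 (96.5% multi-copy words) had 21 H3K79Hcy reads (13.2-fold) and 22 KHcy reads (14.8-fold) in the same 200 bp window. The 3' UTR of Slc30a4, a zinc transporter gene, had 112 H3K79Hcy reads (10.05-fold) and 123 KHcy reads (9.20-fold). The 3' UTR of Speer4e, a testis-expressed gene of a repeated family, had 57 H3K79Hcy reads (8.95-fold) and 68 KHcy reads (7.63-fold). A coding exon of Dux, a double homeobox factor of the early embryo that lies in a gene array, had 95 H3K79Hcy reads (6.63-fold) and 81 KHcy reads (6.06-fold). The 3' UTR of Lars2, the mitochondrial leucyl-tRNA synthetase, had 29 H3K79Hcy reads over 400 bp (9.11-fold) but 53 KHcy reads over 2000 bp (3.57-fold). Multi-copy peaks were rarer among exon-centred peaks than in the lists, at 18 H3K79Hcy peaks (7.29%, 4.66 to 11.2%, against 16.9%) and 27 KHcy peaks (7.96%, 5.53 to 11.3%, against 15.6%). Intron-centred peaks were nearer, at 11.2% and 10.04%.

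To ask where in exons the peaks were centred, each list was set beside the exon bases of mm9 that meet the same rule, weighted by how many peaks of the list fell in the same 5 Mb. Exon bases made up 2.87% of the genome so weighted for the H3K79Hcy list and 3.02% for the KHcy list, while 3.34% and 4.64% of the peaks were exon-centred. The KHcy interval (4.18 to 5.15%) lay wholly above its expected share, also when the weights were taken per 1 Mb (3.27%). The H3K79Hcy interval began at 2.96%, just above its expected share of 2.87% (2.91% per 1 Mb). With the stricter score the H3K79Hcy share was 3.45% (2.77 to 4.27%), an interval that includes the expected share, and the KHcy share was 5.11% (4.38 to 5.96%). The H3K4me3 list had 524 exon-centred peaks among 19339 (2.71%, 2.49 to 2.95%), below its own weighted share of 3.69%.

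Coding sequence held the centres of 107 H3K79Hcy peaks (43.3%, 37.3 to 49.6%) and 127 KHcy peaks (37.5%, 32.5 to 42.7%). The weighted exon bases were 46.2% and 45.7% coding, so that the KHcy share lay below its expectation and the H3K79Hcy share did not differ from its own beyond the interval. The 3' UTR showed the reverse, with 96 H3K79Hcy peaks (38.9%, 33 to 45.1%, against 37.0% of exon bases) and 155 KHcy peaks (45.7%, 40.5 to 51.04%, against 37.6%). With the stricter score, which keeps 153 KHcy peaks, 41.8% were in coding sequence (34.3 to 49.8%) and 44.4% in a 3' UTR (36.8 to 52.4%), and both intervals include the exon bases. Exons of non-coding transcripts of the same genes held 38 (15.4%) and 47 peaks (13.9%). The 5' UTR held 6 H3K79Hcy peaks (2.43%, 1.12 to 5.20%) and 10 KHcy peaks (2.95%, 1.61 to 5.34%), near the weighted 2.94% and 2.55%. By contrast, 53 H3K4me3 exon-centred peaks lay in a 5' UTR (10.1%, 7.82 to 13%, against 2.66%), although gene starts had been left out in the same way.

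Last exons of coding transcripts held 121 H3K79Hcy peaks (49.0%, 42.8 to 55.2%) and 183 KHcy peaks (54.0%, 48.7 to 59.2%), against 48.0% and 47.6% of the weighted exon bases. Of the peaks in a 3' UTR, 94 of 96 and 150 of 155 were in a last exon, whereas of those in coding sequence 27 of 107 and 30 of 127 were. Along the gene, the median position of the H3K79Hcy exon-centred peaks was 82.4% of the gene length from its start. For KHcy it was 84.9% and for H3K4me3 66.7%. The same position over exon bases was not worked out, so these values are not read as a preference for gene ends. First exons held 15 (6.07%) and 19 peaks (5.60%), against 116 H3K4me3 peaks (22.1%, 18.8 to 25.9%). The KHcy interval for last exons lay above the exon bases, and the H3K79Hcy interval included them. With the stricter score the KHcy share in last exons was 52.3% (44.4 to 60.05%), an interval that includes the exon bases. The intervals of the H3K79Hcy and KHcy lists overlapped each other for coding sequence, 3' UTR and last exons. Whether the KHcy excess in 3' UTRs would recur in another library was not tested.

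**Figure D3:**
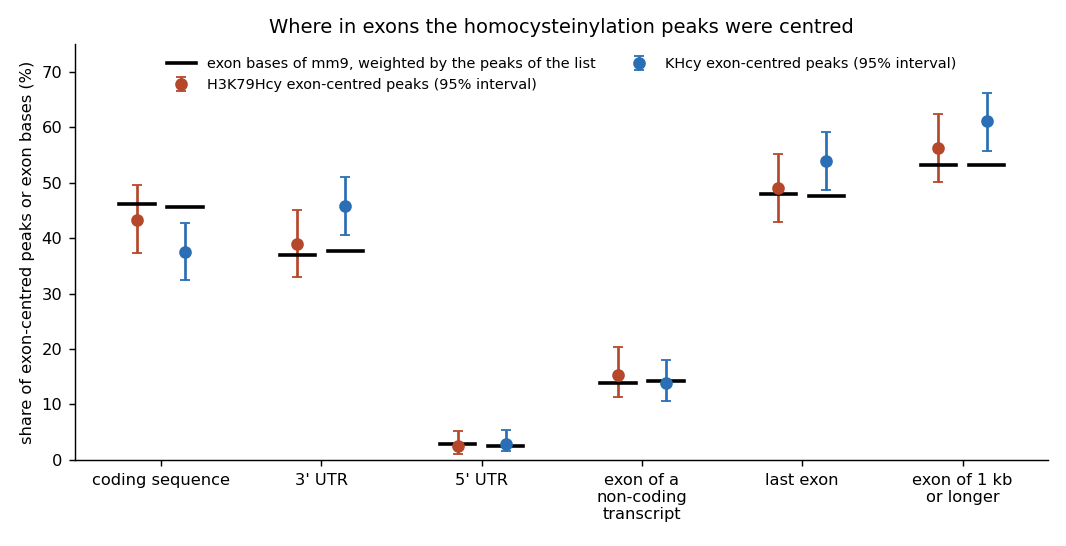
Share of exon-centred peaks in each part of exons (y axis, percent) for H3K79Hcy and KHcy, as points with 95% Wilson intervals, and the share of weighted exon bases of mm9 as black bars. The H3K79Hcy intervals all include their bars, whereas the KHcy points lie below the bar for coding sequence (37.5 against 45.7%) and above it for the 3' UTR (45.7 against 37.6%).

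Exon length differed between these places. The exon at the centre had a median length of 1336 bp in the H3K79Hcy list and 1584 bp in the KHcy list, and exons of 1 kb or longer held 139 (56.3%, 50.04 to 62.3%) and 207 peaks (61.1%, 55.8 to 66.1%), against 53.2% and 53.3% of the weighted exon bases. Peaks centred in coding sequence lay in short exons (median 226 and 212 bp), and those in a 3' UTR in long ones (2379 and 2524 bp). A centre in an exon did not mean that the whole peak was exonic. The peak lay wholly in exons in 69 H3K79Hcy (27.9%) and 60 KHcy cases (17.7%), whereas in 92 (37.2%) and 156 cases (46.0%) the exon lay wholly inside the peak. The exon 19 of Trim33, a nuclear ubiquitin ligase gene, was an example, with 51 bp inside an H3K79Hcy peak of 1400 bp (32 reads, 2.87-fold) and a KHcy peak of 1800 bp (32 reads, 2.39-fold). The longest exons hit were those of Slc4a8 (8350 bp), Gm884 (8264 bp) and Rufy2 (7153 bp) in the H3K79Hcy list, and of Xirp2 (9265 bp), Tet1 (8843 bp) and Zfp652 (8815 bp) in the KHcy list. The folds in these 6 exons lay between 2.21 and 2.79.

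The exon-centred peaks fell in 241 genes for H3K79Hcy and 327 for KHcy, 516 of the 22380 protein-coding genes in all. Both lists named 52 genes, which were 21.6% of the H3K79Hcy genes and 15.9% of the KHcy genes. For 138 of the 241 H3K79Hcy genes and 166 of the 327 KHcy genes the exon-centred peak was the only peak of that list in the gene. Peaks in the gene body were found in 1751 genes for H3K79Hcy and 2076 for KHcy. Matching shares over those genes were not worked out, so these counts are not read as high or low. Over both lists, 10 genes had 3 or more exon-centred peaks, and 5 of these lay on chromosome 6. Beside Emp2, they included Kdm5a, Dnahc8, Bcl2l13, Rad18, Pzp, Ddx19b, Ttn and Spna2, at folds of at most 3.30. Kdm5a, a demethylase of H3K4, had 2 peaks in each list. An H3K79Hcy peak of 21 reads (3.30-fold) and a KHcy peak of 43 reads (2.41-fold) overlapped in its 3' UTR, a KHcy peak of 36 reads (2.20-fold) lay at the start of the same 5590 bp last exon, and an H3K79Hcy peak of 23 reads (2.89-fold) lay in an exon of a non-coding transcript. Dnahc8, an axonemal dynein heavy chain gene, had 4 peaks on coding exons, but in all 21 H3K79Hcy and 22 KHcy peaks lay in that gene of 251 kb. Ttn, the giant muscle protein titin, had 3 KHcy peaks, between 1.85- and 2.36-fold, and no exon-centred H3K79Hcy peak.

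Exon-centred peaks fell in 363 bins of 1 Mb, 241 of which had 1 such peak and 11 of which had 5 or more. Bins were not counted in this way for all peaks, so this spread is not read as particular to exon-centred peaks. The fullest bin, on chromosome 8 from 114000001, held 10 in 8 genes, among them Terf2ip, which encodes a telomere-binding protein, and Kars, the lysyl-tRNA synthetase, and it held 55 H3K79Hcy and 57 KHcy peaks of any place. The next, on chromosome 6 from 120000001, held 9 in Kdm5a, Cecr2, Bcl2l13 and Ccdc77, among 21 and 40 peaks of any place. Weighting by peaks per 5 Mb, as above, takes such local density into account.

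Genes with an exon-centred peak were longer than protein-coding genes at large and shorter than other genes with peaks. Their median length was 41.2 kb for H3K79Hcy (241 genes) and 40.1 kb for KHcy (327 genes), against 15.4 kb for all 22380 genes. Genes with peaks in the body of which none was exon-centred had medians of 79.04 and 66.5 kb. Taken per peak, the medians of 42.6 and 40.1 kb lay close to those of the weighted exon bases, at 40.1 and 40.5 kb. What sets the length of the genes hit was not tested. Genes hit in a last exon were shorter (34.8 and 29.7 kb) than those hit elsewhere (55.5 and 58.2 kb). The extremes were Sgcd, which encodes a sarcoglycan of muscle membranes (1093 kb, in both lists), Cntn4 and Magi1 for H3K79Hcy, Cdh13 and Dpp10 for KHcy, and on the short side Olfr836, Tas2r130 and Gm17535 for H3K79Hcy and Gm17535, Ccr1l1 and Gm10801 for KHcy. Genes with exon-centred H3K4me3 peaks had a median of 19.5 kb.

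**Figure D4:**
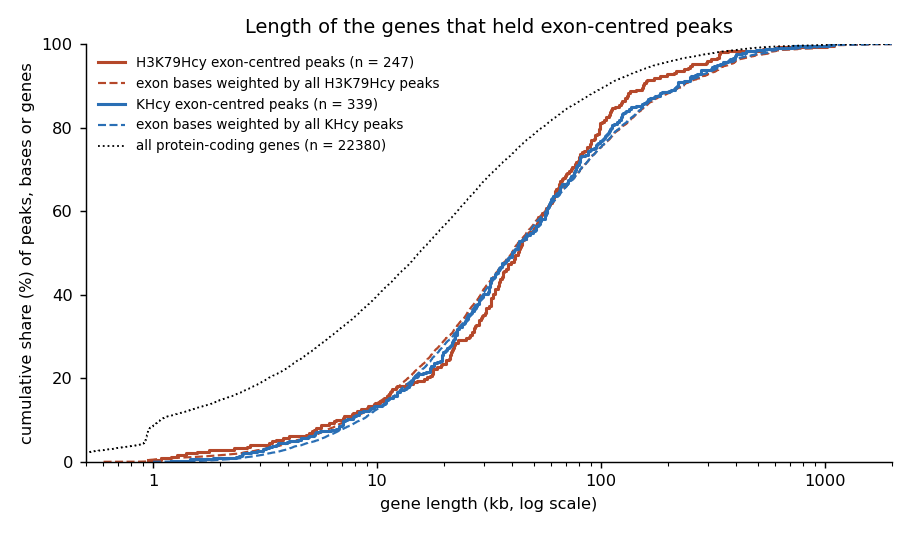
Cumulative share in percent (y axis) against gene length in kb (x axis, log scale) for exon-centred peaks (solid), exon bases weighted by all peaks of the list (dashed) and all protein-coding genes (dotted). The solid and dashed lines run together, with medians of 42.6 and 40.1 kb for H3K79Hcy and of 40.1 and 40.5 kb for KHcy, to the right of the line for all genes (15.4 kb).

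Most exon-centred peaks of either list had no partner in the other. A KHcy peak of any place overlapped 51 of the 247 H3K79Hcy exon-centred peaks by 1 bp or more (20.6%, 16.1 to 26.1%, against 13.9% of all H3K79Hcy peaks), and an H3K79Hcy peak overlapped 46 of the 339 KHcy exon-centred peaks (13.6%, 10.3 to 17.6%, against 12.9%). Intron-centred peaks overlapped the other list in 12.1% and 10.01% of cases, and peaks that contained a gene start in 45.5% and 23.5%. The excess of the H3K79Hcy exon-centred peaks was not seen with the stricter score, where 29.1% of 79 (20.3 to 39.9%) overlapped a KHcy peak against 28.1% of 2293. Without multi-copy peaks it was 17.9% (13.5 to 23.4%) against 9.92% of 6142. Overlap did not differ by place in the gene beyond the intervals, at 22.3% in last exons and 19.0% elsewhere for H3K79Hcy, and at 13.1% and 14.1% for KHcy. The H3K79Hcy peaks that overlapped a KHcy peak had a median fold of 2.93, and those that did not had 2.64.

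H3K4me3 peaks overlapped 38 H3K79Hcy exon-centred peaks (15.4%, 11.4 to 20.4%, against 15.4%) and 43 KHcy exon-centred peaks (12.7%, 9.55 to 16.6%, against 16.5%). Neither other list overlapped 178 (72.1%, 66.2 to 77.3%, against 78.1%) and 267 (78.8%, 74.1 to 82.8%, against 77.3%). Within the exon-centred peaks the overlap with H3K4me3 was lowest for exons of non-coding transcripts, at 1 of 38 (2.63%, 0.466 to 13.5%) and 2 of 47 (4.26%, 1.17 to 14.2%).

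**Figure D5:**
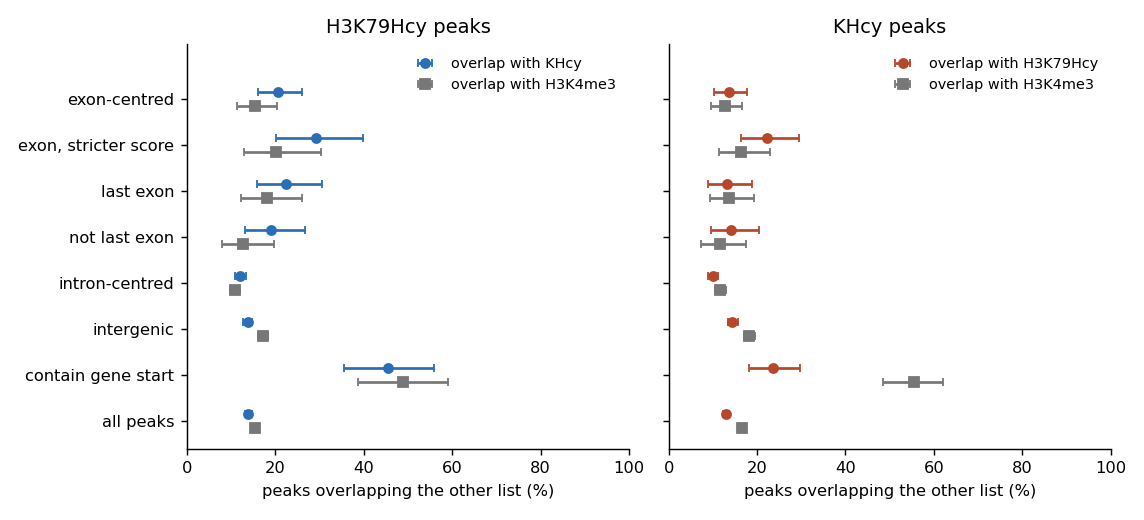
Share of peaks that overlapped a peak of another list by 1 bp or more (x axis, percent) for peaks of each place (y axis), with 95% Wilson intervals, in the H3K79Hcy list (left) and the KHcy list (right). Exon-centred peaks lie near all peaks for H3K4me3 (15.4 against 15.4% and 12.7 against 16.5%), and peaks that contain a gene start lie furthest right, between 23.5 and 55.4%.

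There were 30 overlapping pairs of an H3K79Hcy and a KHcy peak with both centres in exons, formed by 30 H3K79Hcy peaks (12.1% of that list's exon-centred peaks) and 28 KHcy peaks (8.26%). In 16 of the 30 pairs both centres lay in a 3' UTR, in 9 both lay in coding sequence, and 20 were in last exons. The median overlap was 800 bp, 12 pairs had an H3K4me3 peak on either member, and in 8 the H3K79Hcy peak was multi-copy. The Phf5a pair, in which only the KHcy peak was multi-copy, is not among these 8. The 10 pairs of largest smaller fold were Gm17535, Slc30a4, Gm17019, Speer4e, Dux, Lars2, the 2 Emp2 pairs, Fasl and Heatr7b1. In Slc30a4 (10.05- and 9.20-fold), Dux (6.63- and 6.06-fold) and Gm17535 (13.2- and 14.8-fold) the folds of the lists were alike, whereas in Emp2 exon 4 (5.34- and 13.8-fold) and Fasl (5.97- and 10.1-fold) that of KHcy was the larger. Over all 30 pairs the H3K79Hcy fold was the larger in 23, with medians of 3.02 for H3K79Hcy and 2.69 for KHcy. Over all peaks of the lists the medians were 2.70 and 2.25. The larger H3K79Hcy fold in most pairs is therefore not read as particular to the pairs. At Heatr7b1 and the neighbouring Hjurp, which encodes the chaperone of the centromeric histone CENP-A, a single KHcy peak of 554 reads ran from 90145401 to 90167200 on chromosome 1 (3.42-fold) and overlapped 3 exon-centred H3K79Hcy peaks of 87, 110 and 192 reads (3.64-, 3.84- and 3.55-fold), so these 3 pairs share 1 KHcy peak.

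Smurf2, a ubiquitin ligase of TGF-beta signalling and an example region of the study, had an exon-centred peak in both lists. They overlapped by 600 bp in the 3' UTR of its last exon, with 28 H3K79Hcy reads (chr11:106681401-106682600, 2.93-fold) and 27 KHcy reads (chr11:106682001-106683600, 2.27-fold). No H3K4me3 peak overlapped either. This placement rests on a transcript with a last exon of 2699 bp. In the longest coding transcript the last exon measured 740 bp, and of the pair only the KHcy peak reached it. Cecr2, a chromatin remodelling gene needed for neural tube closure, had a KHcy peak of 36 reads (2.20-fold) centred in an exon of a non-coding transcript. Dnmt3b, a DNA methyltransferase, and Smarca4, the Brg1 ATPase of the SWI/SNF remodellers, had no exon-centred peak in either list. The paper counts Cecr2, Smarca4 and Dnmt3b among its H3K79Hcy peak genes, a count that it does not limit to exons. It also reports H3K79Hcy on all 3 genes by ChIP-seq and ChIP-qPCR. For Smarca4 its ChIP-qPCR found more in the gene body than in the flanks. Peaks of other places in Dnmt3b and Smarca4 are not given here, so the lack of an exon-centred peak is not set against that count. The folds given for Smurf2 and Cecr2 lay near the medians of the exon-centred peaks.

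Of 129 genes on a list of chromatin regulators, 12 had an exon-centred peak, 5 for H3K79Hcy (2.07% of its 241 genes, 0.889 to 4.76%) and 9 for KHcy (2.75% of 327, 1.45 to 5.15%), where these genes make up 1.32% and 1.42% of the weighted exon bases. They were Phf5a, Ep300, Kdm5a, Brd2, Chd6, Tet1, Whsc1, Baz2b, Ehmt1, Kdm1a, Hdac11 and Mll1, which include writers, readers and erasers of histone marks and a DNA demethylase. Bptf and Cecr2, described above, were not on this list although each had an exon-centred peak. Phf5a, a splicing factor subunit with a PHD-like fold, was hit in both lists in its 3' UTR (20 H3K79Hcy reads, 3.14-fold, and 24 KHcy reads, 5.38-fold). Its KHcy peak was multi-copy. Ep300, the p300 acetyltransferase, had 17 H3K79Hcy reads (3.56-fold) in a coding exon that an H3K4me3 peak also overlapped. Tet1, which oxidises methylated cytosine, had 2 KHcy peaks in its 3' UTR (46 and 25 reads, 2.21- and 2.403-fold), and Mll1, an H3K4 methyltransferase, had 36 KHcy reads in a coding exon (1.86-fold). The other 7 listed beside Kdm5a lay between 2.07- and 2.64-fold.

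Zinc finger genes of the Zfp and related symbols, mostly DNA-binding repressors, were hit by 14 KHcy genes (4.28%, 2.57 to 7.06%, against 2.25% of weighted exon bases) and 4 H3K79Hcy genes (1.66%, 0.647 to 4.19%, against 2.24%). Zfp451 had peaks on 2 coding exons (30 H3K79Hcy reads, 3.14-fold, and 31 KHcy reads, 2.32-fold), Zfp1 had 32 H3K79Hcy reads on its coding last exon (2.87-fold), and Zfp872 had overlapping coding peaks in both lists (2.83- and 2.12-fold). Over the 16 gene lists and both peak lists, 32 comparisons with the exon bases were made. The interval lay above the exon bases in 2 of them, the zinc finger genes and chromatin regulators for KHcy, and below in 1, the olfactory receptors for KHcy, with 0 of 327 genes (0 to 1.16%, against 1.45%). For chromatin regulators the interval began at 1.45%, just above the 1.42% of exon bases, and its 9 genes included Phf5a. No allowance was made for the number of comparisons.

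Of 118 neural transcription factors, 5 had an exon-centred peak (4.24%, against 2.31% of all protein-coding genes). They made up 1.24% of the H3K79Hcy genes (0.424 to 3.60%, against 0.782% of weighted exon bases) and 0.612% of the KHcy genes (0.168 to 2.20%, against 0.741%). Foxp1 (23 H3K79Hcy reads, 2.89-fold, 3' UTR), Lhx2 (22 reads, 2.76-fold, coding last exon) and Otx1 (30 reads, 2.35-fold, 3' UTR) were in the H3K79Hcy list, and Lhx3 (58 reads, 2.30-fold) and St18 (29 reads, 2.17-fold, coding) in the KHcy list. H3K4me3 overlapped those of Lhx2, Otx1 and Lhx3, and 17 genes of the same list had an exon-centred H3K4me3 peak. Of 40 neural tube closure genes, 3 were hit (7.5%), at 0.830% of the H3K79Hcy genes (against 0.448% of weighted exon bases) and 0.306% of the KHcy genes (against 0.466%), with both intervals including the exon bases. They were Ep300, Fzd3, a Wnt receptor (20 H3K79Hcy reads, 3.14-fold, 3' UTR), and Cecr2. Of 96 potassium channel genes, 4 were hit (4.17%: Kcna6, Kcnt1, Kcnd3 and Kcna1). Solute carriers had 8 of 355 (2.25%), led by Slc30a4, Slc38a1, Slc2a3 and Slc26a8. Glutamate receptors had 2 of 22 (9.09%, Grin2b and Grin3a), leucine-rich repeat genes 3 of 97 (3.09%, Lrrc24, Lrrc14 and Lrrc8d) and keratins 2 of 100 (2.0%, Krt78 and Krt20). Lrrc24 and Lrrc14 overlap on chromosome 15, and each had 1 KHcy peak, of the same fold (2.78), so the same peak may be counted for both. A single gene was hit among 73 cadherins (1.37%, Cdh13), 44 collagens (2.27%, Col12a1), 1113 olfactory receptors (0.0898%, Olfr836) and 322 vomeronasal receptors (0.311%, Vmn2r15). No semaphorin, plexin, ephrin or Eph receptor gene of 52 and no ribosomal protein gene of 144 had an exon-centred peak in either list. With 0 genes the intervals reach 1.57% of the H3K79Hcy genes and 1.16% of the KHcy genes, and both include the weighted exon bases of these lists (0.368 and 0.330%, and 0.220 and 0.253%), so a shortfall was not detectable at this number of genes. Predicted gene models, named by clone or Gm number, made up 51 of the 516 genes (1.41% of 3621 such models). They were 11.2% of the H3K79Hcy genes (7.81 to 15.8%, against 8.03% of weighted exon bases). Of the KHcy genes they were 8.87% (6.25 to 12.4%, against 7.73%). For the lists given here only by the share of genes hit, the intervals also included the exon bases, except for the olfactory receptors in KHcy.

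The rule itself left out 24 H3K79Hcy and 63 KHcy peaks centred in exons because they contained a gene start (median folds 3.51 and 2.52), and 3 and 5 because they were centred upstream of one. The members nearest to a gene start were the H3K79Hcy peak of Dux, whose edge was 54 bp away (6.63-fold), and the KHcy peak of Scd2, 35 bp away (2.69-fold).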

How the data were processed

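ChIP-seq peak lists of NE4C cells, 1 library for each of 3 antibodies, were analysed. Per the methods the authors aligned reads to mm9 with Bowtie 2 and called peaks with MACS, filtering through control input, and the labels name MACS 1.4.2, while a legend names SICER. No pooling is stated. The authors deposited, per peak, the position, the length (multiples of 200 bp), the count of reads, not normalized, and a score. The total depth of the libraries is not given in the sources used here. The reads in peaks numbered 209335, 276864 and 787308 for H3K79Hcy, KHcy and H3K4me3. The background per window was found from the score and reads of the peaks that span 1 window (27, 8 and 14 peaks). The lowest scores were 14.5 and 19.8 for H3K79Hcy and KHcy, so the lists had different limits, and folds, reads and lengths of the 2 lists are only set side by side.

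Positions are mm9, counted from 1. Coding sequence took precedence over 3' UTR, 5' UTR and non-coding transcripts where transcripts differ. Multi-copy words were 31-base words found more than once on both strands of mm9. The stricter score exceeded the lowest by the natural log of 100. Intervals are 95% Wilson intervals. Members, gene lists and the rule for named genes (top 5 folds per list, also among peaks that are not multi-copy, genes with 3 or more peaks, 10 pairs, longest exons, extreme gene lengths, up to 4 genes of each family and the study's 4 genes) were chosen with earlier results of these data known. The scripts were tested on simulated data. Python 3.11.15 was used with pandas 2.3.3. A gene that the rule names is not reported here.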

Additional observations from a re-analysis of the deposited data

How the results depend on the processing

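Of 56 alternative values over the 18 results, 46 stayed within the interval of the reported value (or, for counts, within 1.5 times), and the other 10 were as follows. The stricter score left 79 H3K79Hcy and 153 KHcy exon-centred peaks, since it keeps fewer peaks. It raised the overlap with the other homocysteinylation list to 29.1% and 22.2%, close to the 28.1% and 21.96% of all peaks under the same limit, and the median KHcy fold to 2.32. With protein-coding transcripts only, 51.7% of H3K79Hcy and 43.9% of KHcy exon-centred peaks were in coding sequence, and with the longest coding transcript only, 55.8% and 47.5%, since peaks in other transcripts leave the total. Requiring 50% of the peak to be covered lowered the overlap of KHcy exon-centred peaks to 7.37%. Weights per 1 Mb, the count without multi-copy peaks and the overlap without the peaks of Hjurp, Heatr7b1, Emp2 and Fasl were chosen after seeing the data. Shares over at most 339 peaks of 1 library have intervals of about 10 percentage points, which limits what can be told apart. No paired analysis was possible because each antibody had 1 library and no test was run.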
